A study of Mus musculus with 6 samples.

Results

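The genes described here encode the non-collagen core of the basement membrane: the laminin chains Lama2, Lama4, Lama5, Lamb1, Lamb2 and Lamc1, the nidogens Nid1 and Nid2, perlecan (Hspg2) and agrin (Agrn). They were taken by symbol, with every probe set annotated to 1 of them alone. All 10 genes were found, at 17 of the 22626 non-control probe sets, and 12393 genes in all had such a probe set. RNA came from cochleae of mouse embryos 18.5 days after conception, of C57BL/6J background, homozygous for an Igf1 null allele or wild type, bred from heterozygous parents. Each genotype had 3 independent pools of 4 cochleae from 2 embryos, with the otic capsule and without vestibular tissue, and each pool was hybridised to 1 Affymetrix array. The labels name no treatment, and they do not give the stretch of Igf1 that the null allele lacks. The source field of wild type replicate 2 states a marginally later age than the other labels.

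A basement membrane is a thin sheet of matrix that lies under epithelia and around vessels, Schwann cells and muscle fibres. Laminins are trimers of an alpha, a beta and a gamma chain that polymerise into its first network and bind integrins and dystroglycan on the cell surface. Nidogens bind the laminin gamma chain and type IV collagen and so tie both networks together, and perlecan and agrin are heparan sulfate proteoglycans attached to them. In the cochlea such sheets lie under the sensory epithelium, around strial capillaries and along the Schwann cells of the spiral ganglion, and perlecan is also a component of cartilage such as that of the capsule.

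The array medians of the deposited log2 signals ran from 5.61 to 6.36 in the null arrays and from 6.09 to 6.30 in the wild type arrays, so the arrays were quantile normalized. Null replicate 1 had the lowest median. Igf1, at its brightest probe set, had log2 signals of 10.60, 10.46 and 10.72 in null pools 1 to 3, against 11.14, 10.99 and 11.02 in wild type pools 1 to 3. Each Igf1 value was lower in the null pools, and the difference of -0.46 ± 0.12 (SE) had an adjusted p of 0.887 in limma. Its other 2 probe sets differed by -0.55 and -0.99 (adjusted p of 0.889 and 0.600), also with each null pool below each wild type pool. The genotype rests on titles and descriptions, since the source field of all 3 null samples names wild type. Of 8 cochlear markers 7 were measured, all above the median level, led by Otor (12.01) and Tecta (9.26). Skeletal muscle markers were also present, 8 of 8 above the median level, with a summed log2 signal of 12.46 to 14.18 in null and 12.40 to 14.18 in wild type pools. In pooled tissue, fewer cells of a type and less RNA per cell cannot be told apart. Precision is limited throughout by how few arrays there are.

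Every one of the 10 genes had signal above the median of all probe sets (6.14) at its brightest probe set, and 16 of the 17 probe sets lay above it. Agrn stood at the 96.7 percentile of probe sets, Lamb1 at 95.7, Nid1 at 95.03, Lama4 at 94.6 and Lamc1 at 89.9. The remaining percentiles were 88.3 for Lama2, 86.6 for Hspg2, 85.5 for Nid2, 75.7 for Lamb2 and 55.7 for Lama5. These percentiles place each signal on the array and do not rank transcripts, because probe sets can bind with different efficiency. In the RefSeq gene table of GRCm38.p6 Lama2 and Lama4 lie on chromosome 10, Lama5 on 2, Lamb1 on 12, Lamb2 on 9, Lamc1 on 1, Nid1 on 13, Nid2 on 14, and Hspg2 and Agrn on 4. Probe sets of 1 gene also differed in mean level, by 3.47 log2 units at Lama4 and by 2.32 among those of Lamb1, for reasons that were not tested. The brightest probe sets of the 10 genes together spanned 3.67. Which laminin chain is most abundant in the cochlea cannot be read from these levels.

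**Figure D1:**
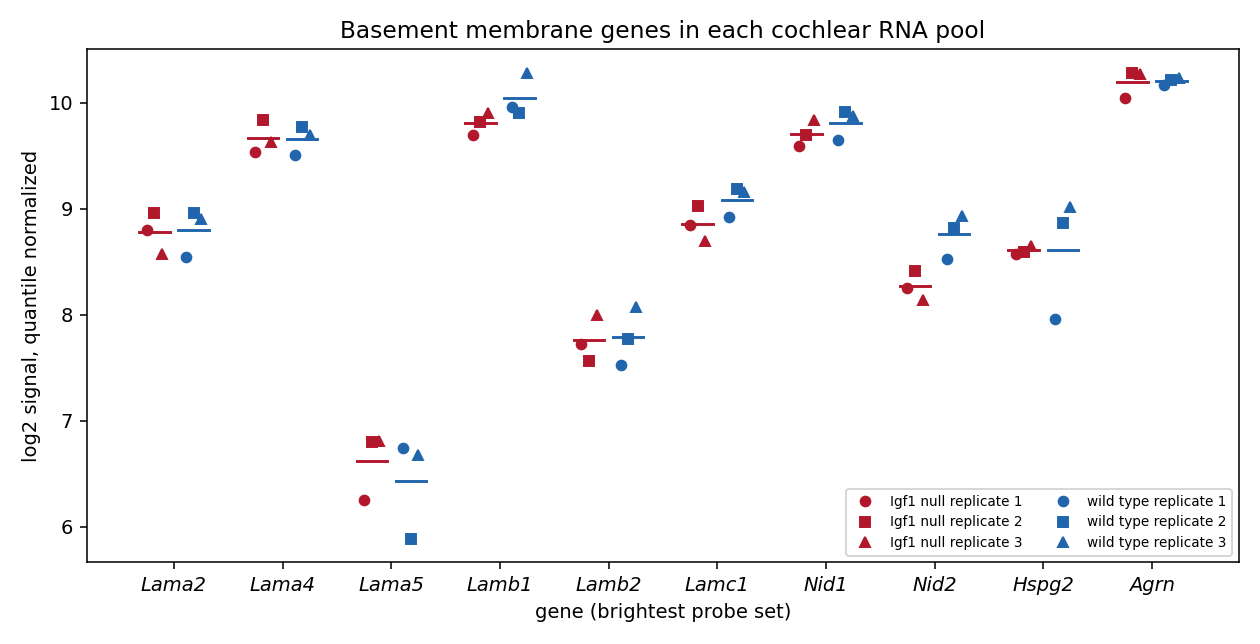
Log2 signal (y axis, quantile normalized) of the 10 genes at the brightest probe set of each (x axis), with 1 symbol per pool, Igf1 null in red and wild type in blue, and a bar at each group mean. The null pools lie below all wild type pools at Nid2 and, by a small margin, at Lamb1, and the groups overlap at the other genes; levels of different genes cannot be compared.

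No member passed the test between genotypes across all probe sets, and the values nearest to it were lower signals of Lamb1 and Nid2 in the null pools. With limma and Benjamini-Hochberg adjustment 0 of the 17 probe sets passed an adjusted p of 0.05, as did 0% of the 22626 probe sets tested. Adjusted p ran from 0.889 to 0.999 over the 17. At an unadjusted p under 0.05 there were 2 of them, 1 of Lamb1 and 1 of Nid2, or 11.8%, where 4.99% of all probe sets reached it, and the 2 became 1 on leaving out null replicate 1, null replicate 3, wild type replicate 2 or wild type replicate 3. In 3 probe sets (17.6%) all null pools lay below all wild type pools, 2 of Lamb1 and 1 of Nid2, and in 0 above, where 5.3% of all probe sets lay below and 5.53% above. The 2 Lamb1 probe sets read the same gene and are not separate evidence. By gene, 8 of 10 had a lower and 2 a higher mean in the null pools, with a median difference of -0.03, against 0.0062 over all genes, of which 48.7% were lower. With each array centred on its median in place of quantile normalization, 4 of the 10 were lower. With quantile normalization, 4 were lower without wild type replicate 3 and 9 without wild type replicate 1. The count of directions thus depends on the scaling and on single arrays.

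**Figure D2:**
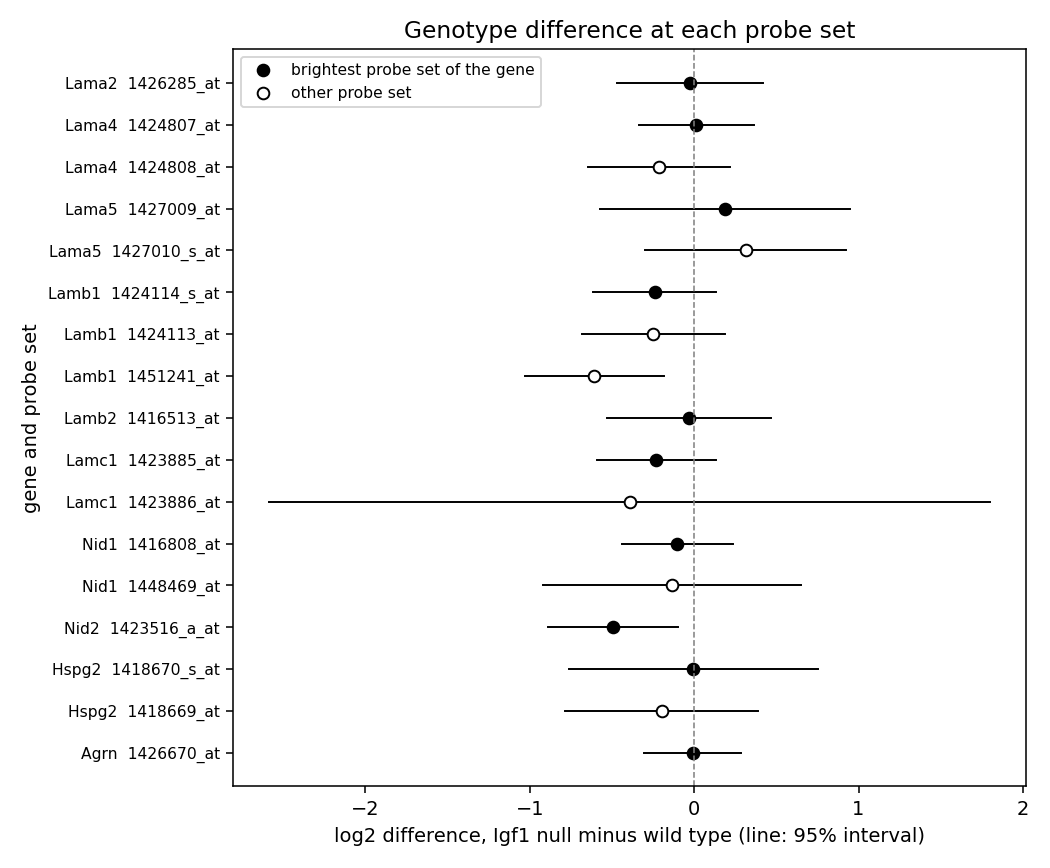
Log2 difference, Igf1 null minus wild type (x axis), at each of the 17 probe sets (y axis), with 95% intervals from limma as lines; filled points are the brightest probe set of a gene. The intervals of Nid2 and of 1 Lamb1 probe set exclude 0 before adjustment, and the dim Lamc1 probe set has the widest interval.

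Among the alpha chains, which set the cell receptors a laminin binds, none passed the test, and null and wild type pools overlapped at all of their probe sets. Lama2, the chain of muscle and Schwann cell laminin, had log2 signals of 8.80, 8.96 and 8.57 in null pools, against 8.54, 8.96 and 8.90 in wild type pools. The groups overlapped, and the Lama2 difference of -0.02 ± 0.18 (SE) corresponds to a ratio of 0.984 with a 95% interval from 0.724 to 1.34. Lama4, a chain of vessel walls and of mesenchyme, had 9.54, 9.83 and 9.63 in null pools, against 9.503, 9.77 and 9.69 in wild type pools. The null to wild type ratio of Lama4 was 1.01 (95% interval 0.791 to 1.29), and the values of both groups interleave. At its dimmer probe set Lama4 differed by -0.21 ± 0.17 (SE), with overlapping groups.

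Lama5, the chain most typical of mature epithelial basement membranes, had the largest difference above 0 and varied widely between pools. Its log2 signals were 6.26, 6.80 and 6.81 in null pools, against 6.74, 5.89 and 6.68 in wild type pools. Null replicate 1 and wild type replicate 2 were the low pools, so each group held a low value. The second Lama5 probe set gave 6.28, 6.64 and 6.91 in null pools, against 6.57, 5.95 and 6.36 in wild type pools, with the same low pools. The Lama5 differences were 0.19 ± 0.30 (SE) and 0.31 ± 0.24 (SE), with unadjusted limma p of 0.556 and 0.251 and adjusted p of 0.987 and 0.981. Without wild type replicate 2 the Lama5 difference was -0.09.

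The beta chains were Lamb1, which is made early and widely, and Lamb2, found in the kidney glomerulus, the neuromuscular synapse and vessels. All 3 Lamb1 probe sets had a lower mean in the null pools. The brightest gave 9.70, 9.82 and 9.91 in null pools, against 9.96, 9.91 and 10.28 in wild type pools. Those groups do not overlap, but null replicate 3 and wild type replicate 2 were nearly equal. A dimmer Lamb1 probe set gave 7.47, 7.39 and 7.05 in null pools, against 7.85, 7.79 and 8.09 in wild type pools, a clear gap. The third Lamb1 probe set gave 8.59, 8.25 and 8.46 in null pools, against 8.69, 8.44 and 8.91 in wild type pools, which overlap. The brightest has the suffix _s_at, which the array's maker uses for probes that can also bind related transcripts, as have 1 probe set each of Lama5 and Hspg2.

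In limma the Lamb1 differences were -0.24 ± 0.15 (SE) at the brightest, -0.25 ± 0.17 at the middle and -0.61 ± 0.17 at the dimmest probe set. The unadjusted p of the last was 0.0134 and its adjusted p 0.889, for a ratio of 0.656 with a 95% interval from 0.490 to 0.879. At the brightest and the dimmest probe set a two-sided exact permutation test gave p = 0.1, below which 3 arrays against 3 cannot go. Without wild type replicate 3 the difference at the brightest was -0.12, and without null replicate 3 that at the dimmest was -0.48.

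Lamb2 had log2 signals of 7.72, 7.56 and 7.997 in null pools, against 7.53, 7.77 and 8.07 in wild type pools, with no separation. Its difference was -0.03 ± 0.20 (SE), a ratio of 0.979 (95% interval 0.692 to 1.38). Within each array, Lamb1 minus Lamb2 averaged 2.05 ± 0.19 (SD, n = 3) in null and 2.26 ± 0.15 (SD, n = 3) in wild type arrays. The groups overlapped (exact permutation p = 0.3), so unequal behaviour of the beta chains was not shown.

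The promoters of the beta chains are printed as a description. Whether these sequences bear on the Lamb1 or Lamb2 values was not tested. Each line holds the 250 bases before the RefSeq start, in build GRCm38.p6 on the plus strand, with the letters GGGCGG or their reverse complement CCGCCC (the GC box, which binds Sp1-type factors) in capitals. The Lamb1 window is chr12:31265043-31265292 and the Lamb2 window chr9:108479612-108479861.
Lamb1: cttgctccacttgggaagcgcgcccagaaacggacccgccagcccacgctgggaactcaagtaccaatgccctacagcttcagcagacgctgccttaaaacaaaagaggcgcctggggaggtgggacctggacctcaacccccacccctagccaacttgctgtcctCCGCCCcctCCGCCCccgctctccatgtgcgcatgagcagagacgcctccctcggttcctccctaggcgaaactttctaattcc
Lamb2: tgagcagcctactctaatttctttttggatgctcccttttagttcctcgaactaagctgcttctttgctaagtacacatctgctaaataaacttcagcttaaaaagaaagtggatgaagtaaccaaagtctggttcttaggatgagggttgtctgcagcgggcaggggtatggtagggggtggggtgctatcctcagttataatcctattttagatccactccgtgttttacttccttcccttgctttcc

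The Lamb1 window was 62% G and C with 2 GC boxes, and the Lamb2 window 43.6% with 0, where the median of all 32851 promoter windows was 52.4% and 32.7% of them held a GC box. Searched on both strands, TATAAA was in neither, CCAAT was in Lamb1 once and not in Lamb2, and GTAAACA, the core bound by FoxO factors, was in neither. Of all windows, 12.4% held TATAAA, 33.9% CCAAT and 3.17% GTAAACA. The motifs do not overlap each other in these windows. Of the 10 genes 7 had a promoter in the table (Lama2, Lama5, Lamb1, Lamb2, Nid1, Hspg2 and Agrn), and GTAAACA was in none of their windows. A match or its absence describes these letters and says nothing about binding.

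Lamc1, the gamma chain shared by most laminins and the one that nidogens bind, had log2 signals of 8.84, 9.03 and 8.70 in null pools, against 8.92, 9.18 and 9.15 in wild type pools. The groups overlap through null replicate 2 and wild type replicate 1. The Lamc1 difference of -0.23 ± 0.14 (SE) had an unadjusted limma p of 0.164 and an adjusted p of 0.980. The other Lamc1 probe set was dim, at the 18.8 percentile, and ran from 1.20 to 2.91 in null and from 0.879 to 3.80 in wild type pools. The interval of its difference reached from -2.58 to 1.80, too wide to read a direction from.

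Nid2, the nidogen that accompanies Nid1 in most vertebrate basement membranes, was the gene with the largest difference. Its log2 signals were 8.25, 8.41 and 8.14 in null pools, against 8.52, 8.82 and 8.94 in wild type pools, and every null pool was below every wild type pool. Nid2 averaged 8.27 ± 0.14 (SD, n = 3) in null and 8.76 ± 0.21 (SD, n = 3) in wild type cochleae. The difference was -0.49 ± 0.16 (SE), a ratio of 0.711 with a 95% interval from 0.541 to 0.936. In limma the unadjusted p was 0.0237 and the adjusted p 0.928, and the exact permutation p was 0.1, the smallest possible. Nid2 was the only 1 of the 10 genes whose interval at the brightest probe set excluded 0 before adjustment, and it has a single probe set on this array. On the values as deposited Nid2 had 7.73, 8.61 and 8.26 in null pools, against 8.65, 8.96 and 8.86 in wild type pools. These again did not overlap, but null replicate 2 and wild type replicate 1 were nearly equal. The array medians differ on that scale, and the limma adjusted p was 0.9999.

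Nid1 had log2 signals of 9.59, 9.70 and 9.84 in null pools, against 9.65, 9.91 and 9.88 in wild type pools, and the groups overlap. Its difference was -0.10 ± 0.13 (SE), a ratio of 0.931 (95% interval 0.736 to 1.18). The second Nid1 probe set differed by -0.14 ± 0.31 (SE), with a low value of 7.96 in wild type replicate 1. Within each array, Nid2 minus Nid1 was -1.33, -1.29 and -1.70 in null arrays, against -1.12, -1.09 and -0.94 in wild type arrays. Each null array lay below each wild type array, by -0.39 on average (exact permutation p = 0.1, and 0.2 adjusted over the 2 pairs of sister chains compared). The 2 pairs were chosen after the values were seen.

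Perlecan, Hspg2, differed more among wild type pools than between genotypes. Its brightest probe set gave 8.58, 8.60 and 8.65 in null pools, against 7.96, 8.87 and 9.01 in wild type pools. The null pools lay close together and inside the wild type range, where wild type replicate 1 was low. The difference was -0.01 ± 0.30 (SE), and it was -0.33 without wild type replicate 1 and 0.19 without wild type replicate 3. The second Hspg2 probe set gave 8.03, 8.11 and 7.74 in null pools, against 7.73, 8.30 and 8.45 in wild type pools, again with wild type replicate 1 lowest.

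Agrin, which organises acetylcholine receptors at the neuromuscular synapse and also lies in other basement membranes, had the narrowest interval of the 10 genes. Agrn had log2 signals of 10.04, 10.28 and 10.27 in null pools, against 10.17, 10.22 and 10.23 in wild type pools. The difference was -0.01 ± 0.12 (SE), and the ratio of 0.993 had a 95% interval from 0.810 to 1.22. Lama5 had the widest, from 0.673 to 1.93.

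**Figure D3:**
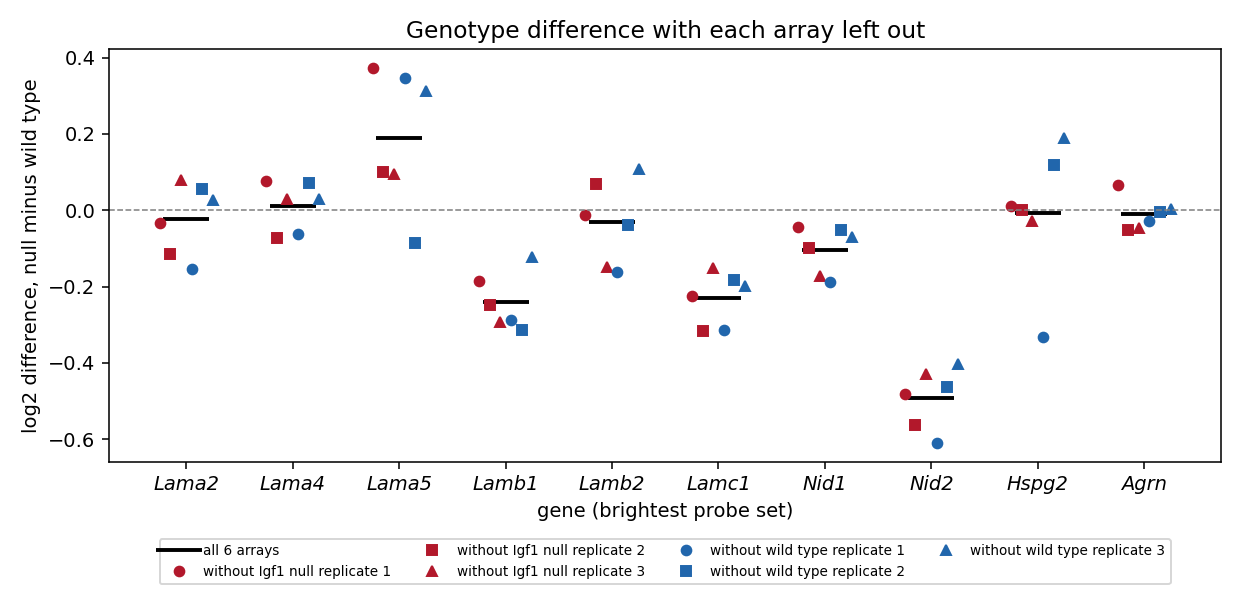
Log2 difference, Igf1 null minus wild type (y axis), of each gene at its brightest probe set (x axis), with all 6 arrays (black bar) and with 1 array left out (symbols, red for a null and blue for a wild type array). Nid2, Lamb1, Lamc1 and Nid1 stay below 0 whichever array is left out, and the other genes cross 0.

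The sample titles contain an unexplained number. It is 14 in replicate 1 of both genotypes and 16 in the other pools. Nid2 differed by -0.27 between the 2 arrays of number 14 and by -0.60 among the 4 of number 16. The brightest Lamb1 probe set differed by -0.26 and -0.23, and the dimmest by -0.38 and -0.72, so both genes kept their direction in each set. Lama5 differed by -0.49 in number 14 and by 0.53 in number 16, and Hspg2 by 0.61 and -0.32, opposite signs in each case. The 2 arrays of number 14 allow no test.

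The summed signals of 2 of the 10 marker lists, erythroid and vestibular, did not overlap between genotypes, and those of the others did. Of all genes, taken singly, 4.98% had null pools below and 5.62% above all wild type pools, and no such share was computed for sums. In lists with overlapping sums, null pools lay below all wild type pools at Col9a1, Sp7 and Dmp1 and above at Otog. No marker passed the test across all probe sets. The summed log2 signal of 3 measured erythroid markers of 5 ran from 6.88 to 7.61 in null and from 7.89 to 8.35 in wild type pools, with Alas2 and Slc4a1 lower in the null means and the dim Epb42 higher (0.78). For 3 vestibular markers of 4 the sum ran from 10.75 to 11.69 in null and from 9.99 to 10.48 in wild type pools. These markers were listed for tissue left out of the dissection. Whether cochlear tissue also expresses them was not tested, so their sum does not measure vestibular tissue in the pools. Oc90 was the brightest and carried the sum, and all 3 had higher null means. The differences were 0.86 for Oc90, 0.66 for Hmx3 and 0.70 for Hmx2, with Hmx3 and Hmx2 below the median level. All 7 cartilage markers had lower means in the null pools, with overlapping sums of 14.27 to 14.72 in null and 14.62 to 14.90 in wild type pools. Sums of 8 endothelial markers (10.29 to 10.37 in null, 10.28 to 10.50 in wild type) and of 4 of 7 Schwann cell markers (10.26 to 10.33 in null, 10.20 to 10.74 in wild type) overlapped. Sums for bone (5 of 6 markers), skeletal muscle, epithelium (5 of 5), smooth muscle and pericytes (6 of 6) and cochlear markers overlapped too. Null means were lower for 5 of 5 bone, 7 of 8 endothelial and 3 of 4 Schwann cell markers. The same held for 5 of 6 smooth muscle and pericyte markers. It held for 1 of 8 skeletal muscle, 1 of 5 epithelial and 1 of 7 cochlear markers, against 48.7% of all genes. On the deposited values the 3' minus 5' log2 signal of the beta-actin control was 0.94 ± 0.12 (SD, n = 3) in null and 0.76 ± 0.04 (SD, n = 3) in wild type arrays, higher in each null array, while that of the Gapdh control overlapped (0.35 ± 0.17 in null, 0.25 ± 0.06 in wild type, SD, n = 3 each). The part of these markers and of RNA quality in the Nid2 and Lamb1 values was not tested.

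Among themselves the 10 genes shared only part of their variation. Over the 6 arrays, Pearson correlations between gene pairs ran from -0.46 (Lama2 and Lama5) to 0.93 (Lamc1 and Nid2), and 39 of 45 pairs were above 0. The genes share arrays and their scaling, and with 6 arrays these values are descriptions. The non-member genes whose profile over the 6 arrays was most like the mean standardised profile of the 10 were Chad (r = 0.985), Tbc1d10b (0.9753), Comp (0.9748), Col6a1 (0.973) and Chst12 (0.972), out of 7092 above the median level. Chad and Comp encode cartilage matrix proteins and Col6a1 a chain of type VI collagen.

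Other genes of the basement membrane were read from 5 lists, and 0 of their 52 measured members passed in limma, adjusted over all probe sets. Over all genes 48.7% had a lower null mean. Of 5 other laminin chains 4 were measured, 3 with lower and 1 with higher null means, and a median difference of -0.27. All 4 lay below the median level of all probe sets (6.14), from 3.78 at Lamc3 to 5.71 at Lama1, where differences are less certain. Lama3, a chain of epidermal laminin, had 3.98 ± 0.60 (SD, n = 3) in null and 5.01 ± 0.75 (SD, n = 3) in wild type pools, overlapping and below the median level. Its difference of -1.04 was -0.44 with a pseudocount of 32 and -0.65 without wild type replicate 1. Lamb3 differed by -0.41 ± 0.52 (SE) and Lama1, the chain of early embryonic laminin, by 0.30 ± 0.31. Without wild type replicate 1 these were -0.074 and 0.041, and without wild type replicate 2 -0.98 and 0.54.

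Of 23 other components 20 were measured, with 18 means lower and 2 higher in null pools and a median of -0.16. In 4 of the 20 (20%) the null pools lay below all wild type pools and in 1 (5%) above, where 4.98% of all genes lay below and 5.62% above. Fn1, fibronectin, gave log2 signals of 10.02, 10.24 and 9.83 in null pools, against 10.53, 10.63 and 10.94 in wild type pools, a gap in every pool. Its difference was -0.67 ± 0.18 (SE), with an unadjusted limma p of 0.0113 and an adjusted p of 0.887. The type IV collagen chain genes Col4a3 (-1.26 ± 0.32 SE) and Col4a4 (1.71 ± 0.43) had opposite signs at the 21.7 and 22.4 percentile, where signal is low. With a pseudocount of 32 they stood at -0.23 and 0.34. The other type IV chain genes were named after their values were seen. Col4a1 differed by -0.16 ± 0.12 (SE), Col4a2 by -0.27 ± 0.13, Col4a5 by -0.11 ± 0.14 and Col4a6 by 0.09 ± 0.25. Col4a1 and Col4a2 were bright, at levels of 11.60 and 10.38. Among Col4a1, Col4a2, Col4a5 and Col4a6, null pools lay below all wild type pools at Col4a2 alone. The groups also did not overlap at the low-signal Col4a3 (null below) and Col4a4 (null above). Sparc, named after its values were seen, was the other component with null pools below (-0.32 ± 0.13 SE).

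Of 14 receptors 13 were measured, with 11 means lower and 2 higher in null pools and a median of -0.12. The collagen and laminin receptor subunit Itga2 differed by -0.90 ± 0.25 (SE) at a level of 3.72, the laminin receptor subunit Itgb4 by -0.92 ± 0.41 at 4.86, and the agrin receptor Lrp4 by -0.26 ± 0.18 at 6.69. Itga2 alone of these 3 had non-overlapping groups. With a pseudocount of 32 Itga2 stood at -0.26 and Itgb4 at -0.41, and Itgb4 was -0.58 without null replicate 1. Lrp4 was -0.16 without null replicate 1 and without wild type replicate 1. All 8 measured genes of 11 in collagen crosslinking and matrix turnover had lower null means, where 48.7% of all genes were lower. The crosslinking genes Pxdn and Loxl2, and Hpse, were not measured. The 8 encode proteases and their inhibitors, and Plod3, so they say little about crosslinking. The median of the 8 was -0.22, and null pools lay below all wild type pools in 2 (25%) and above in 0. Of all genes 4.98% lay below and 5.62% above. Smallest in p were the protease genes Adamts1 (-0.34 ± 0.12 SE) and Mmp14 (-0.25 ± 0.16, or -0.16 without wild type replicate 3). Next was the inhibitor Timp1 (-0.23 ± 0.18, or -0.094 without null replicate 3 and -0.39 without null replicate 1). The protease gene Mmp9, named after its values were seen, had a larger difference with a far larger error (-0.76 ± 0.76). Of 11 enzymes that glycosylate dystroglycan, the laminin receptor of muscle and nerve, 7 were measured, with 4 means higher and 3 lower in null pools and a median of 0.07. B4gat1 differed by -0.42 ± 0.14 (SE), Pomt1 by 0.19 ± 0.10 and B3galnt2 by 0.28 ± 0.25. Without wild type replicate 2 the B3galnt2 difference was 0.021.

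**Figure D4:**
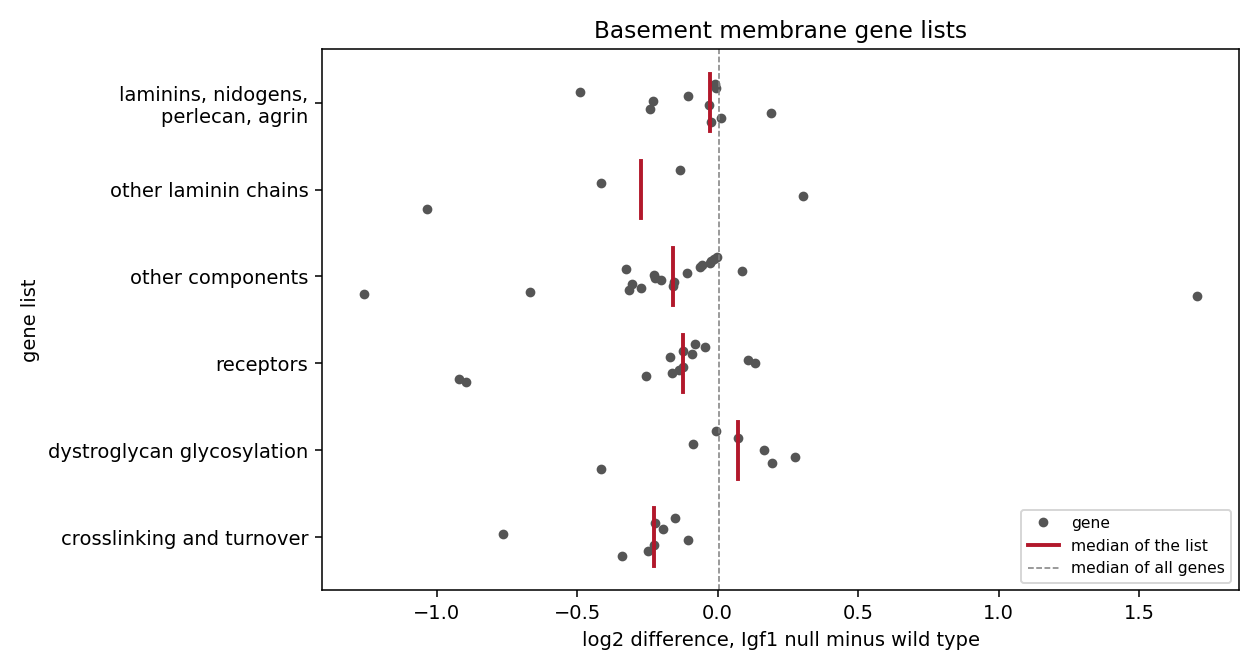
Log2 difference, Igf1 null minus wild type (x axis), of each measured gene (grey points, brightest probe set) in the 10 genes and in 5 other basement membrane lists (y axis), with each list's median as a red bar and the median of all genes as a dashed line. List medians run from -0.27 to 0.07, and the points farthest from 0 are the low-signal genes Lama3, Col4a3 and Col4a4.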

How the data were processed

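Members and lists were chosen with earlier results of these data known. The authors deposited log2 signals, 1 for each probe set on each array. Base 2 was inferred from their range, and how the authors summarised probes is not given in the sources used here. Labelled cRNA was hybridised to 1 array per pool, per the labels' protocols. Here 64 control probe sets were left out and the arrays quantile normalized, with no filter or pseudocount. Probe sets were named from the platform annotation, with symbols updated through Entrez identifiers from RefSeq's GRCm38.p6 gene table: 20380 had 1 gene, 691 several and 1555 none. A gene was read at its brightest probe set by mean over all 6 arrays.

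The genotype comparison used limma 3.58.1 (lmFit and eBayes, R 4.3.3), two-sided with no covariate, adjusted over all probe sets by Benjamini-Hochberg at 0.05. Named by rule were all members, 3 genes per list by smallest p, Igf1, and the 5 genes of most similar profile. On simulated data of 22626 probe sets, 0% of 1.5-fold, 20.4% of 2-fold and 80.4% of 4-fold changes above the median level were called. Alternatives were the deposited values, median centring, replicate or title number as a block, title number 16 only, a pseudocount of 32, a trended robust variance, a filter at the 40th percentile, the mean of a gene's probe sets, and leaving out each array. The residuals of same-numbered null and wild type arrays correlated at 0.04, 0.10 and 0.02, and those of differently numbered ones at -0.07 to 0.03. Values this small cannot decide whether the replicate numbers pair the samples. Promoter sequences are RefSeq's.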

Additional observations from a re-analysis of the deposited data

How the results depend on the processing

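Under each of the 15 alternatives 0 member probe sets and 0 of all probe sets passed the threshold in limma (at an unadjusted p under 0.05, 2 members and 1130 in all with the settings reported). Nid2, Lamb1, Lamc1 and Nid1 kept a difference below 0 in 15 of 15, Nid2 between -0.62 and -0.40 with an adjusted p of 0.707 to 0.9999 and Lamb1 between -0.37 and -0.12. In 6 of the 15 alternatives 1 in place of 2 member probe sets had an unadjusted p under 0.05: on the values as deposited, with the replicate block, and without null replicate 1, null replicate 3, wild type replicate 2 or wild type replicate 3. With the replicate block, a pairing that was not established, Nid2 stood at -0.49 (limma adjusted p = 0.842).

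Signs turned at 6 genes. With the values as deposited, on which all probe sets shifted by a median of -0.15, Lama4 stood at -0.10, and with the mean of its probe sets at -0.101. With median centring Lama2 (0.028), Lamb2 (0.018), Hspg2 (0.034) and Agrn (0.044) turned, and with title number 16 alone Agrn (0.050). Leaving out single arrays gave ranges of -0.15 to 0.079 for Lama2, -0.072 to 0.077 for Lama4, -0.085 to 0.37 for Lama5, -0.16 to 0.11 for Lamb2, -0.33 to 0.19 for Hspg2 and -0.053 to 0.067 for Agrn. For the second probe sets the ranges were -1.22 to 0.24 at Lamc1 and -0.45 to 0.080 at Nid1. The cause was not tested.

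The median over the 10 genes was -0.18 when wild type replicate 1 was left out and 0.015 when wild type replicate 3 was. As deposited, list medians were -0.55 (other laminin chains), -0.26 (other components), -0.25 (receptors), -0.10 (dystroglycan glycosylation) and -0.34 (crosslinking and turnover). The 40th percentile filter left 1 other laminin chain, Lama1, at 0.30, and title number 16 alone gave 0.029 for dystroglycan glycosylation. Leaving out single arrays, medians ran from -0.48 to -0.089 for other laminin chains, -0.22 to -0.064 for other components, -0.16 to -0.083 for receptors, 0.0044 to 0.14 for dystroglycan glycosylation and -0.31 to -0.14 for crosslinking and turnover.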
